A study of Mus musculus with 12 samples.

Results

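The nuclear-encoded subunits of the mitochondrial respiratory chain are described here at the level of their RNA and of the ribosome footprints on that RNA in mouse mammary gland. Members were taken by gene symbol: every listed gene whose symbol starts with Nduf (without the Ndufaf assembly factors), Uqcr, Cox4 to Cox8 or Atp5, together with Sdha, Sdhb, Sdhc, Sdhd and Cyc1. This gave 71 of the 7318 listed genes, with 35 in complex I, 4 in complex II, 8 in complex III, 11 in complex IV and 13 in complex V. Complexes were assigned by symbol, so Ndufa4 and Ndufa4l2 were counted with complex I. The rule uses no measured value. The samples came from mammary glands 3 to 5 of 4-week-old female FVB/N mice that all carried 2 transgenes, MMTV-Wnt1 and MMTV-iFgfr1. Both are driven by MMTV, a viral promoter active mainly in the mammary epithelium. The iFgfr1 product is a form of FGF receptor 1 that signals once the dimerizing compound AP20187 has joined it in pairs, so every group had WNT signalling on and the groups differed in FGFR1 signalling. Mice were killed 6 h after an intraperitoneal injection of AP20187 or of vehicle. The 12 libraries form 4 groups of 3: footprints with AP20187, footprints with vehicle, RNA with AP20187 and RNA with vehicle. Per the labels' protocols, an RNA library and a footprint library were made from the same cell pellet, and cells were enriched for epithelium by short spins without a sort. No mice received AP20187 without the inducible receptor, so the compound and the receptor's signal cannot be told apart. The labels do not say whether a pellet came from 1 mouse or several, and p-values therefore measure the spread between these libraries only.

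The respiratory chain sits in the inner mitochondrial membrane. Complex I takes electrons from NADH and complex II from succinate, both pass them to ubiquinone, complex III moves them on to cytochrome c, and complex IV hands them to oxygen. Complexes I, III and IV pump protons as they do so, and complex V, the ATP synthase, lets the protons return and makes ATP. Most subunits are encoded in the nucleus, translated in the cytosol and imported, while a small set is encoded by mitochondrial DNA and translated inside the organelle. None of the mitochondrially encoded subunits was listed, so the following covers only nuclear subunits, and of those only the ones analysed here. Some, such as Cox8a and Atp5g1 to Atp5g3, were not analysed, so medians and counts by complex leave them out.

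Over the listed genes, RNA libraries held 94513818 to 251874393 counts and footprint libraries 1772969 to 11018709. A floor of 3 counts corresponds to 0.0119 to 0.0317 CPM (counts scaled to a common library size) in RNA and to 0.272 to 1.69 CPM in footprints, counting error only. Marker sums of several cell types differed between treatments. The summed RNA of 7 listed fibroblast markers, of 10 looked for, was 1267 to 1719.6 CPM with AP20187 and 3418 to 5936 CPM with vehicle. Their summed footprints were 3113 to 4739.7 CPM with AP20187 and 11649.9 to 31230.0 CPM with vehicle. For RNA of 5 of 11 adipocyte markers the sums were 49.2 to 105 CPM with AP20187 and 266 to 517 CPM with vehicle, and for 4 of 8 endothelial markers they were 286 to 327 CPM with AP20187 and 531 to 717 CPM with vehicle. Luminal epithelial markers (7 of 9) summed to 6966 to 9356 CPM with AP20187 and to 4102 to 5115 CPM with vehicle, and basal markers (7 of 7) to 1765 to 3013 CPM with AP20187 and to 4242 to 5103 CPM with vehicle. Within these 2 lists the genes did not all go one way: of the luminal genes 6 rose and Krt19 fell (-1.13 ± 0.16, edgeR adjusted p = 0.00660), and of the basal genes 4 fell while Krt5 (0.80 ± 0.27) and Trp63 (0.60 ± 0.19) were positive and not past the threshold. Immune markers (3 of 8) overlapped in RNA, at 183 to 287 CPM with AP20187 and 220 to 448 CPM with vehicle. In footprints the luminal sums overlapped, at 7688 to 11747 CPM with AP20187 and 6457 to 8871 CPM with vehicle, whereas the immune sums did not, at 288 to 673 CPM with AP20187 and 824 to 967 CPM with vehicle. The adipocyte, endothelial and basal footprint sums were lower in every AP20187 library than in every vehicle library. No listed marker of these lists averaged 0 CPM in RNA. The part of these marker differences in the results below was not tested, and in such bulk samples fewer cells of a type cannot be told apart from less RNA per cell.

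No subunit gene passed the test in RNA. Most differences were positive and small, and the summed RNA of the subunit genes overlapped between the groups. The 71 genes together took 0.908%, 0.983% and 1.19% of the RNA counts in AP20187 libraries 1, 2 and 3, and 0.753%, 1.04% and 0.720% in vehicle libraries 1, 2 and 3. The AP20187 libraries were thus above vehicle libraries 1 and 3, but vehicle library 2 was above 2 of them. The median log2 difference was 0.30 over the 71 genes, against 0.01 over all genes tested. Of the 71 differences 65 were positive (all genes: 3731 of 7314), in genes that share the same libraries. In the quasi-likelihood test of edgeR with Benjamini-Hochberg adjustment, 0 of 71 were called higher or lower at an adjusted p under 0.05, whereas 12.4% of all genes were called higher and 13.9% lower. At an unadjusted p under 0.05, 14 of the 71 were higher and 0 lower (all genes: 20.3% higher and 20.5% lower). DESeq2 called 6 members higher and 0 lower (all genes: 16.7% higher and 17.4% lower), namely Ndufa8, Atp5b, Ndufa4, Cyc1, Ndufb6 and Ndufb9. Limma voom called 0, and its share over all genes was not computed. In 11 members every AP20187 library exceeded every vehicle library, and in 2 every one was lower, while 21.9% of all genes lay above and 23.1% below in this way. The share of subunit genes that separated the groups was thus not above that of the table.

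The count depended on vehicle library 2. Relative to the vehicle mean of each gene, the median member stood at 0.11, 0.15 and 0.56 (log2) in AP20187 libraries 1, 2 and 3, and at -0.17, 0.30 and -0.15 in vehicle libraries 1, 2 and 3. Without vehicle library 2, edgeR called 14 members higher and 0 lower, and the median difference was 0.47. In that fit 14.3% of all genes were called higher and 13.6% lower. Those 14 members were Ndufb7, Ndufa4, Uqcrq, Atp5o, Ndufb9, Ndufc2, Ndufb8, Cox6a1, Ndufs3, Uqcrfs1, Ndufa8, Cyc1, Ndufs7 and Atp5c1. Without AP20187 library 2 there were 2 members called higher, Ndufa12 and Ndufb6, with 14.3% of all genes higher and 15.9% lower, and without AP20187 library 3 the median difference was 0.14. Vehicle library 2 also had the lowest fibroblast marker sum of the vehicle RNA libraries, at 3418 CPM, and AP20187 library 3 the lowest of all 6, at 1267 CPM; the part of this in the subunit values was not tested.

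**Figure D1:**
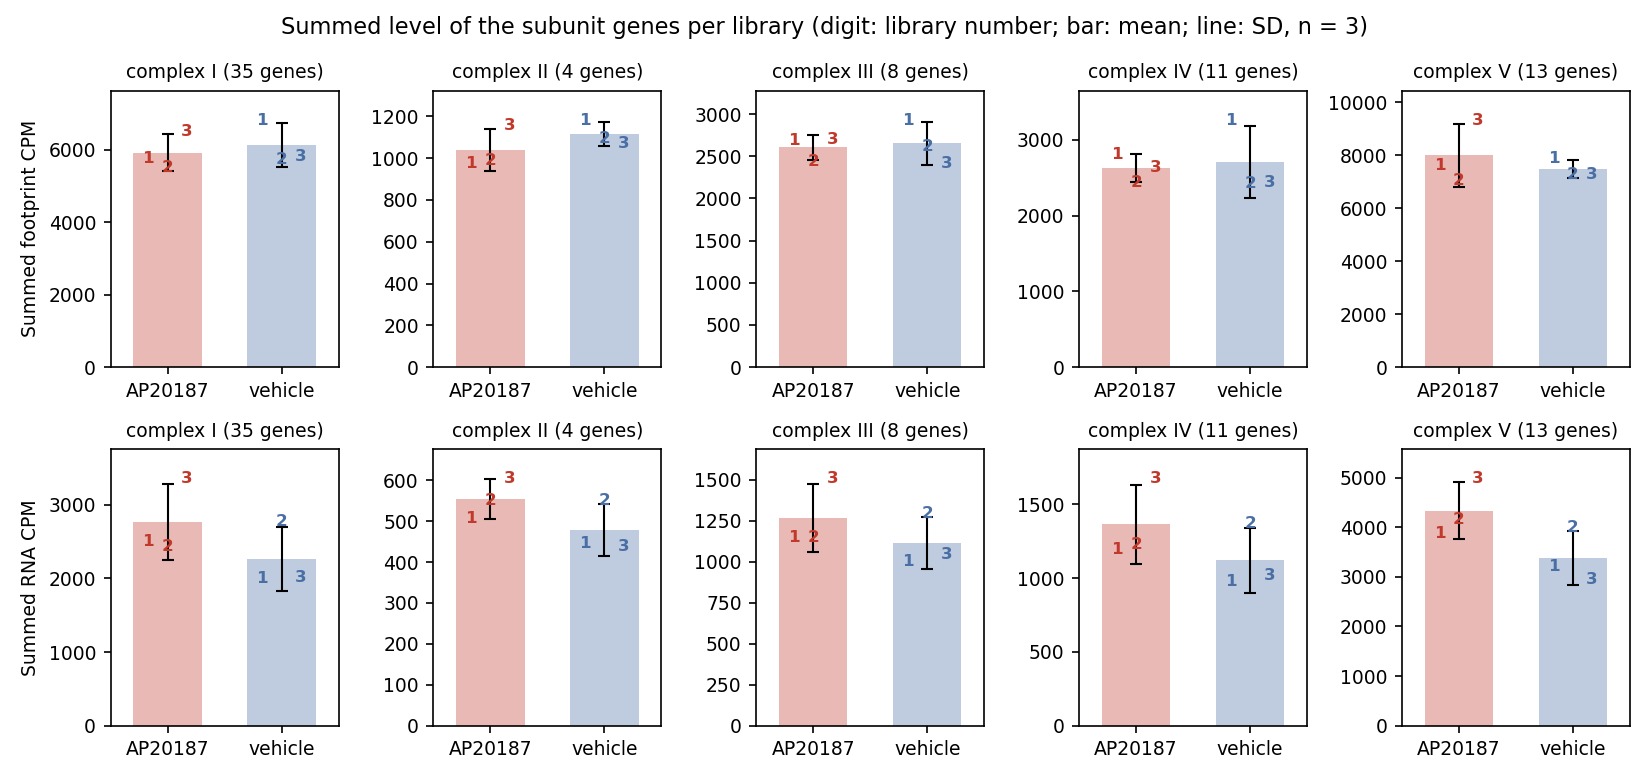
Summed CPM of the subunit genes of each complex per library, for footprints (upper row) and RNA (lower row), with AP20187 on the left and vehicle on the right of each panel. Digits are library numbers, bars are means and lines the SD of 3 libraries. In RNA, AP20187 library 3 is the highest in every complex and vehicle library 2 is above AP20187 libraries 1 and 2 in complexes I to IV, while the footprint sums of the groups overlap in all 5 complexes.

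In complex I, the median RNA difference was 0.28 over 35 genes, and 33 were positive. Summed RNA of these genes was 2504, 2434 and 3356 CPM in AP20187 libraries and 2004, 2771 and 2013 CPM in vehicle libraries. Ndufa8, an accessory subunit on the intermembrane space side, had the smallest p of all members. Its RNA was 54.9, 62.4 and 67.6 CPM with AP20187 and 43.5, 50.8 and 38.5 CPM with vehicle, a log2 difference of 0.48 ± 0.16 (SE; edgeR adjusted p = 0.0535). Each AP20187 library was above each vehicle library. Ndufb6, an accessory subunit of the membrane arm, had the next smallest p within complex I, with 48.8, 47.4 and 69.9 CPM with AP20187 and 35.4, 43.8 and 37.6 CPM with vehicle. Its difference of 0.51 ± 0.19 had an edgeR adjusted p of 0.0762, again without overlap of the libraries. The other complex I genes with no overlap upwards were Ndufa10, Ndufab1, Ndufs3 and Ndufs7, with differences of 0.36 to 0.47. Ndufs7 carries the iron-sulfur cluster that passes electrons to ubiquinone. The 7 core subunits, which hold the flavin and the iron-sulfur clusters, had a median of 0.22 and the 28 accessory subunits one of 0.28. By symbol, the accessory set includes Ndufa4 (0.71) and Ndufa4l2 (-0.50), the highest and the lowest difference counted with complex I. Ndufs1, a core subunit, differed by only 0.07 ± 0.16.

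The 4 genes of complex II, which is the only complex with no mitochondrially encoded subunit, had RNA differences of 0.16 to 0.32. Sdha, the flavoprotein that oxidizes succinate, had 229, 252 and 234 CPM with AP20187 and 214, 230 and 198 CPM with vehicle (0.16 ± 0.12, edgeR adjusted p = 0.369). Sdhc, a membrane anchor, had 64.0, 87.7 and 72.8 CPM with AP20187 and 56.6, 68.5 and 55.5 CPM with vehicle (0.31 ± 0.16, edgeR adjusted p = 0.178). Sdhb, the iron-sulfur subunit, differed by 0.32 ± 0.19 and Sdhd, the other anchor, by 0.18 ± 0.20, and in each of the 4 genes at least 1 vehicle library reached into the AP20187 range.

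Complex III had 7 of 8 positive RNA differences and a median of 0.28. Cyc1, the haem protein cytochrome c1, had 144, 159 and 182 CPM with AP20187 and 116, 137 and 107 CPM with vehicle, a difference of 0.43 ± 0.15 (edgeR adjusted p = 0.0614) without overlap. Uqcrc1, a core protein of the matrix side, had 198, 217 and 199.5 CPM with AP20187 and 165, 178 and 147 CPM with vehicle (0.33 ± 0.13, edgeR adjusted p = 0.0855), also without overlap. Its partner Uqcrc2 differed by 0.09 ± 0.18. Uqcrh, the hinge protein that helps cytochrome c1 meet cytochrome c, was the negative one, with 162, 173 and 250 CPM with AP20187 and 187, 256.5 and 225 CPM with vehicle (-0.19 ± 0.20, edgeR adjusted p = 0.489). Its libraries overlapped.

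In complex IV, 9 of 11 RNA differences were positive, with a median of 0.27. Cox6a1, the form of subunit 6A found in most tissues, had 157, 162 and 197 CPM with AP20187 and 120, 155 and 112 CPM with vehicle. The difference was 0.41 ± 0.16 (edgeR adjusted p = 0.0945), with no overlap but only a narrow gap to vehicle library 2. Cox5a had 89.3, 103 and 121 CPM with AP20187 and 70.3, 95.1 and 85.0 CPM with vehicle (0.32 ± 0.17, edgeR adjusted p = 0.179), and here vehicle library 2 lay inside the AP20187 range. The other RNA differences of complex IV reached from -0.19 for Cox7a2l to 0.54 for Cox7c.

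Complex V had 12 of 13 positive RNA differences and the highest median of the 5 complexes, 0.33. Atp5b, the catalytic beta subunit, was the most abundant member in RNA, with 1364, 1524 and 1658 CPM with AP20187 and 1138, 1282 and 994 CPM with vehicle. Its difference was 0.41 ± 0.17 (edgeR adjusted p = 0.0980), without overlap. The alpha subunit gene Atp5a1 had 1153, 1219 and 1345 CPM with AP20187 and 965, 1125 and 858 CPM with vehicle (0.33 ± 0.16, edgeR adjusted p = 0.156), also without overlap. Atp5s, whose product is a coupling factor rather than a structural subunit, was lower in all 3 AP20187 libraries. It had 3.74, 4.49 and 5.06 CPM with AP20187 and 5.65, 7.03 and 6.62 CPM with vehicle (-0.54 ± 0.24, edgeR adjusted p = 0.129).

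**Figure D2:**
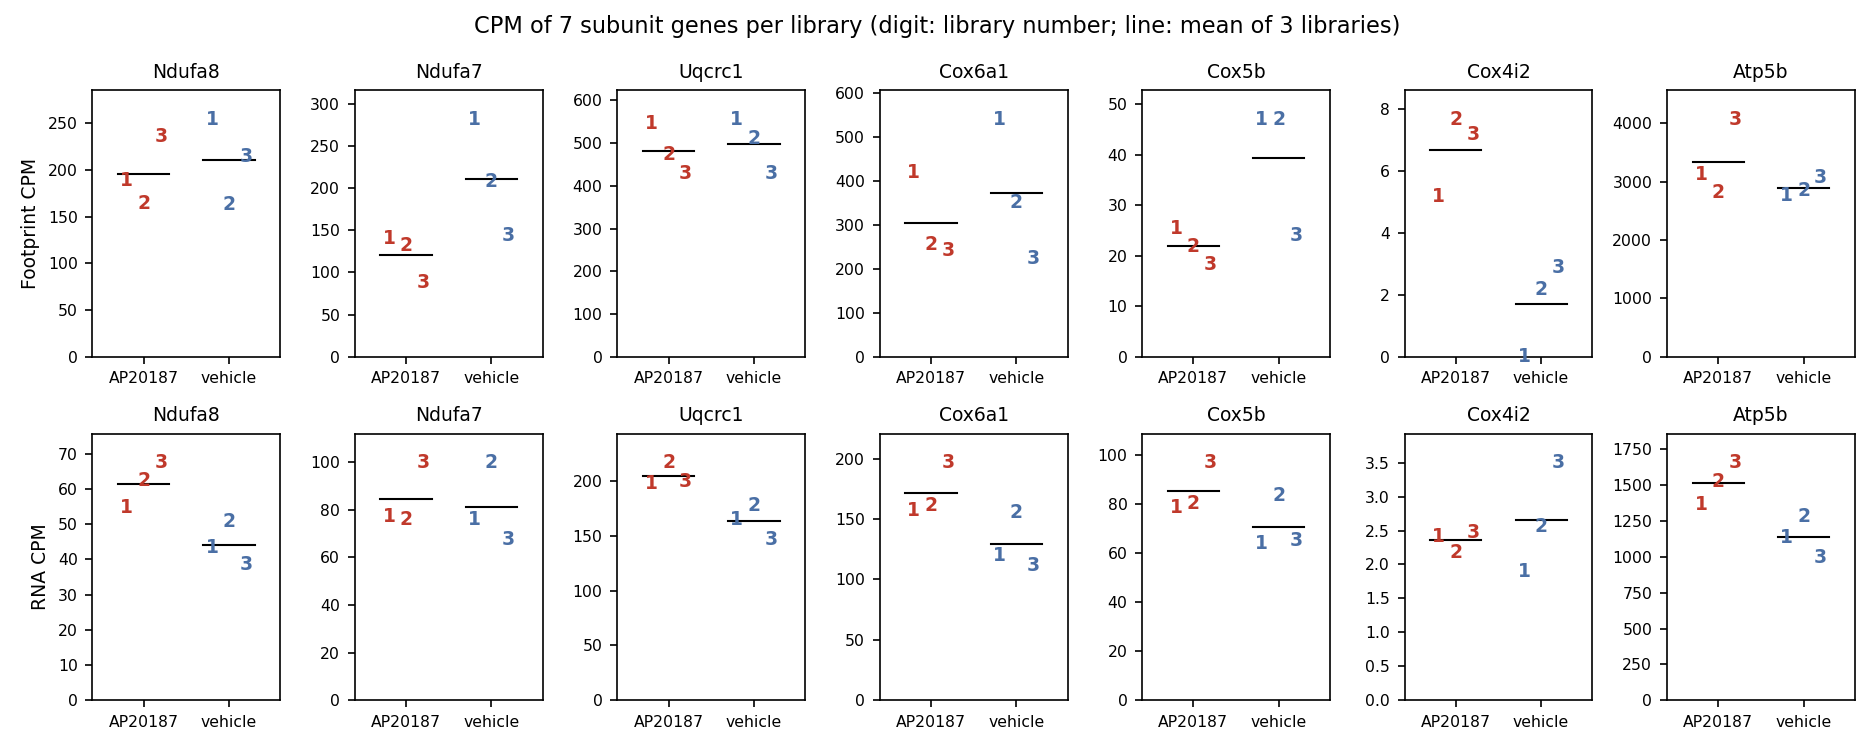
CPM of 7 subunit genes per library, footprints above and RNA below, with AP20187 left of vehicle; digits are library numbers and lines group means, and each axis starts at 0. RNA of Ndufa8, Uqcrc1, Cox6a1 and Atp5b is higher in all AP20187 libraries, whereas footprints of Ndufa7 lie below all vehicle libraries and those of Cox4i2 above, at few counts.

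No subunit gene passed the test in footprints. The members took 1.92%, 1.97% and 2.23% of the footprint counts in AP20187 libraries 1, 2 and 3, and 2.16%, 1.98% and 1.81% in vehicle libraries 1, 2 and 3. The ranges overlapped. Of 69 members tested, since Uqcrb and Cox7c had too few footprints, 0 were called in either direction by edgeR, DESeq2 or limma voom. Among all genes, edgeR called 0.937% higher and 1.6% lower. The shares over all genes were not computed for DESeq2 and limma voom, so their counts of 0 have no background here. At an unadjusted p under 0.05, edgeR had 0 members higher and 3 lower (all genes: 7.8% higher and 8.68% lower). The median log2 difference was -0.05, against 0.03 over all genes, and 29 of 69 were positive (all genes: 3660 of 7041). All 3 AP20187 libraries lay above vehicle in 2 members and below in 2, where 11.4% and 11.8% of all genes did so. Medians by complex were -0.04 in complex I, -0.10 in complex II, -0.11 in complex III, 0.06 in complex IV and 0.03 in complex V.

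Ndufa7, an accessory subunit of complex I, had the smallest footprint p in that complex. Its footprints were 140, 132 and 88.4 CPM with AP20187 and 282, 208 and 143 CPM with vehicle, with a log2 difference of -0.81 ± 0.31 (edgeR adjusted p = 0.205). The groups did not overlap, although AP20187 library 1 came close to vehicle library 3. With the replicate number as a block, same-numbered footprint libraries of both treatments were paired, although the labels do not say what a number marks. In that fit Ndufa7 was the single member called lower (-0.79, edgeR adjusted p = 0.0212), with 5.01% of all genes higher and 5.14% lower. Its RNA was 77.4, 75.9 and 99.9 CPM with AP20187 and 75.8, 99.8 and 67.4 CPM with vehicle, and those values overlapped. Ndufa6, another accessory subunit, had footprints of 171, 177 and 128 CPM with AP20187 and 284, 236 and 210 CPM with vehicle (-0.61 ± 0.25, edgeR adjusted p = 0.247), without overlap.

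In complex IV the smallest footprint p-values belonged to Cox5b and Cox4i2, which pointed in opposite directions. Cox5b had footprints of 25.4, 21.8 and 18.3 CPM with AP20187 and 47.1, 46.9 and 24.1 CPM with vehicle (-0.83 ± 0.37, edgeR adjusted p = 0.298). AP20187 library 1 was above vehicle library 3. Of the 28-base windows of its coding sequence, 76.9% also occur in the protein-coding gene Gm11273, so its footprints are uncertain. Cox4i2, the form of subunit 4 known from lung and from cells short of oxygen, had 55, 25 and 27 footprint counts with AP20187 and 0, 4 and 11 with vehicle. In CPM these were 5.16, 7.67 and 7.17 with AP20187 and 0, 2.18 and 2.88 with vehicle (1.85 ± 0.93, edgeR adjusted p = 0.359). No overlap was seen, but the vehicle counts were close to the floor.

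The remaining complexes had footprint differences within the spread of their libraries. Sdha had 360, 383 and 308 CPM with AP20187 and 413, 399.8 and 338 CPM with vehicle (-0.13 ± 0.24, edgeR adjusted p = 0.859), and Sdhd differed by -0.10 ± 0.28, which turned to 0.10 without vehicle library 1. In complex III, Uqcrh differed by -0.18 ± 0.24 and Uqcrfs1, the Rieske iron-sulfur protein, by 0.17 ± 0.25. In complex V, Atp5k (subunit e) had 73.0, 41.7 and 39.3 CPM with AP20187 and 153, 55.1 and 38.8 CPM with vehicle (-0.66 ± 0.48, edgeR adjusted p = 0.557). Vehicle library 1 alone was high there, and without it the difference was 0.15. Atp5s had 6.57, 7.36 and 5.58 CPM with AP20187 and 27.9, 5.45 and 5.76 CPM with vehicle, so that its difference of -0.98 ± 0.72 likewise turned to 0.21 without vehicle library 1.

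The change in translational efficiency, that is the footprint response minus the RNA response of a gene, was tested in 1 model over all 12 libraries. That model had no term for the cell pellet that an RNA and a footprint library share. The change was negative in 67 of 71 members (all genes: 4216 of 7315), with a median of -0.41 against -0.08 over all genes tested. With a term per pellet, the member median was -0.37. The members share all libraries, so their signs are not independent. In edgeR, DESeq2 and limma voom 0 members passed. Among all genes 0% were called higher and 0% lower by edgeR, so for edgeR a count of 0 is also the background. For DESeq2 and limma voom that share was not computed. At an unadjusted p under 0.05, edgeR had 1 member higher and 2 lower (all genes: 2.65% higher and 2.13% lower). The lowest values with such a p were -1.14 ± 0.37 for Cox5b (edgeR adjusted p = 0.893) and -0.92 ± 0.37 for Ndufa7 (edgeR adjusted p = 0.988), and the higher one was Cox4i2 at 1.94 ± 0.83 (edgeR adjusted p = 0.988). Complex medians lay close together, from -0.42 in complex III to -0.35 in complex IV.

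By cell pellet, the median member had a log2 ratio of footprints over RNA of 1.29, 1.22 and 0.87 in AP20187 pellets 1, 2 and 3, and of 1.96, 1.15 and 1.42 in vehicle pellets 1, 2 and 3. The vehicle pellet 2 lay inside the AP20187 range, so the groups overlapped. Over all genes tested, the medians of the 6 pellets were between -0.04 and 0.04. Leaving out each library in turn, the median change in translational efficiency of the members ranged from -0.57 to -0.21.

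**Figure D3:**
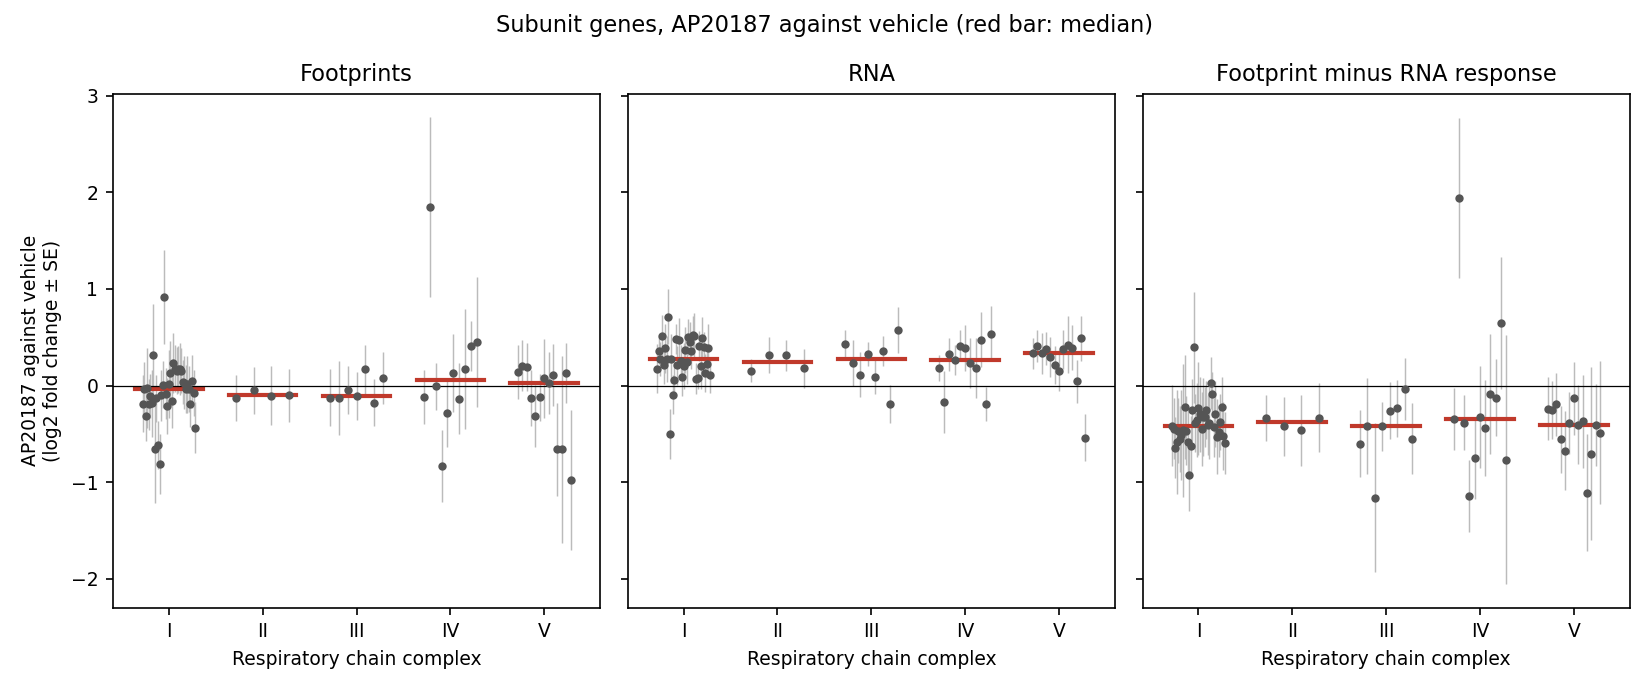
Log2 fold change of AP20187 against vehicle for each subunit gene by complex, in footprints (69 genes), RNA (71) and as footprint minus RNA response (71). Points are genes with the SE as a line, and red bars are medians. RNA medians sit between 0.25 and 0.33, footprint medians between -0.11 and 0.06, and the difference of responses is negative for 67 of 71 genes, Cox4i2 being the highest.

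Relative to all listed genes, the subunit transcripts carried many footprints for their RNA. The log2 ratio of footprints over RNA had a median of 1.11 over the members with AP20187 and of 1.503 with vehicle, against 0.00 and 0.06 over all genes tested. With AP20187, 48 of 71 members were called higher in footprints than in RNA and 6 lower (edgeR; all genes: 19.4% higher and 20.5% lower). With vehicle, 53 were called higher and 5 lower (all genes: 26.7% higher and 24.2% lower). These ratios compare CPM in a footprint library with CPM in an RNA library, so they are relative to the average listed gene. Subunit coding sequences are short, with a median of 456 bases against 1443 over all matched genes. Scaling footprints to coding length and RNA to transcript length gave member medians of 1.84 with AP20187 (all genes: 0.91) and 2.34 with vehicle (all genes: 1.00). This scaling depends only on the coding share of a transcript, with a median of 59.4% in members and 57.8% over all matched genes. It therefore does not account for short coding sequences, and their part in the ratios was not tested.

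Atp5e, which encodes the small epsilon subunit of the ATP synthase, had the highest ratio with vehicle. Its footprints were 561, 548 and 439 CPM with AP20187 and 890, 659 and 381 CPM with vehicle, over RNA of 87.4, 102 and 131 CPM with AP20187 and 73.5, 109.5 and 77.2 CPM with vehicle. The log2 ratio was 2.37 ± 0.30 with AP20187 (edgeR adjusted p = 4.41e-05) and 3.04 ± 0.31 with vehicle (edgeR adjusted p = 4.72e-06). In the other complexes the highest ratios belonged to Ndufb6 (2.56 with AP20187, 2.88 with vehicle), Sdhc (1.86 with AP20187, 2.32 with vehicle), Uqcrq (2.08 with AP20187, 2.63 with vehicle) and Cox4i1 (2.03 with AP20187, 2.38 with vehicle). All of these were called with both treatments, and in each of the 6 pellets their footprint level was above their RNA level. The lowest ratios of complexes I and II with vehicle belonged to Ndufs1 and Sdha. Ndufs1, which carries iron-sulfur clusters of the NADH-oxidizing arm, had -0.02 ± 0.19 with AP20187 and -0.05 ± 0.19 with vehicle, and Sdha had 0.65 ± 0.17 with AP20187 and 0.99 ± 0.17 with vehicle.

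A few subunits stood far below the rest. Cox7c, a small subunit of complex IV, had 23, 0 and 3 footprint counts with AP20187 and 10, 0 and 0 with vehicle, over 15821, 7948 and 11040 RNA counts with AP20187 and 11786, 10388 and 4608 with vehicle. Its ratio was -5.95 ± 0.79 with AP20187 (edgeR adjusted p = 6.61e-05) and -5.18 ± 0.87 with vehicle (edgeR adjusted p = 0.000249). Uqcrb, a ubiquinone-binding subunit of complex III, had 16, 6 and 11 footprint counts with AP20187 and 0, 6 and 26 with vehicle, and ratios of -5.76 ± 0.56 with AP20187 and -4.60 ± 0.54 with vehicle. Atp5h (subunit d of the ATP synthase stalk) had ratios of -2.85 ± 0.27 with AP20187 and -2.72 ± 0.28 with vehicle. For Cox7a2l, known as a supercomplex assembly factor, they were -2.23 ± 0.48 with AP20187 and -2.88 ± 0.52 with vehicle. The remaining members called lower were Cox5b, at -1.86 ± 0.27 with AP20187 and -0.72 ± 0.26 with vehicle, and, with AP20187 alone, Atp5o, at -0.82 ± 0.30. For Atp5o the vehicle ratio of -0.41 ± 0.30 was not past the threshold, and the difference of the 2 ratios was not either (edgeR adjusted p = 0.988).

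These low values went together with coding sequence that is repeated elsewhere in the genome. Many housekeeping genes have processed pseudogenes, intron-less copies of their mRNA, and a footprint of about 28 bases can then match several places. How reads with several matches were counted is not given in the sources used here. Each 28-base window of a gene's principal coding sequence was therefore looked for in the annotated transcripts of other loci (GENCODE M21, GRCm38). Windows shared with another locus were present in 45 of 71 members (63.4%, against 32.6% of 7134 matched genes), and at least 50% of windows were shared in 11 members (15.5%, against 7.65%). The coding sequences of Cox7c, Uqcrb and Cox7a2l are shown because they had the lowest ratios in complexes III and IV, and that of Atp5e because it had the highest with vehicle. Capitals mark bases that lie in at least 1 window with no copy at another annotated locus, so lower case marks bases that no such window covers. Cox7c lies at chr13:86044816-86046904 on the minus strand, Uqcrb at chr13:66900617-66905378 on the minus strand, Cox7a2l at chr17:83501918-83517330 on the minus strand and Atp5e at chr2:174461072-174464105 on the minus strand (gene spans), and of Uqcrb and Cox7a2l the first 300 coding bases are printed, from the start codon.
Cox7c: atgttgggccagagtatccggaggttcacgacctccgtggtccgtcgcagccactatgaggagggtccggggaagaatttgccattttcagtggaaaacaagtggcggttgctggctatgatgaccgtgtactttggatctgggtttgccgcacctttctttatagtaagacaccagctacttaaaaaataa
Uqcrb: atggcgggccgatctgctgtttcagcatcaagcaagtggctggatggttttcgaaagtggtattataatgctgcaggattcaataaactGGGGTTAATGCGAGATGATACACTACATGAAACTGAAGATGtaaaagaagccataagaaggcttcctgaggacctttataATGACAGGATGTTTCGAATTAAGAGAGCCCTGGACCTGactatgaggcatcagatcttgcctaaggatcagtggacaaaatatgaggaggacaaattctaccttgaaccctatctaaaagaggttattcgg
Cox7a2l: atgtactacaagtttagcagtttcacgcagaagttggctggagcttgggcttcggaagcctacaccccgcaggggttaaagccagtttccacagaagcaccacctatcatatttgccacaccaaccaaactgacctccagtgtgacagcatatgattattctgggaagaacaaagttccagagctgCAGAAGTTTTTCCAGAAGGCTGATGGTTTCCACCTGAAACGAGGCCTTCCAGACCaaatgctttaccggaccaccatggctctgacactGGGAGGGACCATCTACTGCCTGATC
Atp5e: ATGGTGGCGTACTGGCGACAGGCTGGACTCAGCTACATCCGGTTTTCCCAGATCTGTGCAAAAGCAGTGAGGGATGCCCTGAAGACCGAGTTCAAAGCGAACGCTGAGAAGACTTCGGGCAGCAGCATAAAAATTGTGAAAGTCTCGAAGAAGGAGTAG

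All 192 coding bases of Cox7c are in lower case, because 100% of its windows recur in the processed pseudogene Gm12338, and 5 further pseudogenes hold part of it. Uqcrb keeps 79 bases in capitals within the stretch shown and has 91.9% of its windows shared, and Cox7a2l keeps 80 and has 81.9% shared, all of them with Gm6969. All 159 bases of Atp5e are in capitals. Atp5h had 81.5% of its windows shared with Gm10250. Over the members, the ratio was lower where more windows were shared. With under 10% shared windows (42 genes) the median ratio was 1.40 with AP20187 and 1.78 with vehicle, with 10% to under 50% (18 genes) it was 0.69 with AP20187 and 1.21 with vehicle, and with 50% or more (11 genes) it was -1.12 with AP20187 and -0.42 with vehicle. None of the 42 genes with under 10% was called lower in either group, and 39 were called higher with AP20187 and 38 with vehicle. Across the 71 genes, Spearman's correlation of ratio and shared share was -0.54 with AP20187 and -0.51 with vehicle, as a description only, since the genes share all libraries. The pattern had exceptions: of the 11 genes with 50% or more, 2 were called higher and 5 lower with AP20187, and 4 higher and 5 lower with vehicle. Those called higher with vehicle alone were Cox6c (68.1% shared), at 0.59 ± 0.35 with AP20187 and 1.03 ± 0.35 with vehicle, and Ndufs3 (69.8%), at 0.15 ± 0.22 with AP20187 and 0.58 ± 0.22 with vehicle. Those called higher with both treatments were Ndufab1 and Ndufa12. Ndufab1, the mitochondrial acyl carrier protein, shares 100% of its windows with 5 pseudogenes, yet its ratio was 1.91 ± 0.41 with AP20187 and 1.52 ± 0.42 with vehicle. Its RNA, however, was listed at only 10.3, 11.7 and 13.4 CPM with AP20187 and 8.22, 10.2 and 7.04 CPM with vehicle. Ndufa12 shares 78.3% with Gm15920 and had ratios of 1.54 ± 0.38 with AP20187 and 2.13 ± 0.39 with vehicle. Atp5l (subunit g), with 100% of windows shared over 21 other genes, of which 20 are pseudogenes, was low in both assays, with 8.79, 8.38 and 11.8 CPM of RNA with AP20187 and 8.79, 10.7 and 8.54 CPM with vehicle. The part of the repeated sequence in these counts was not tested.

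**Figure D4:**
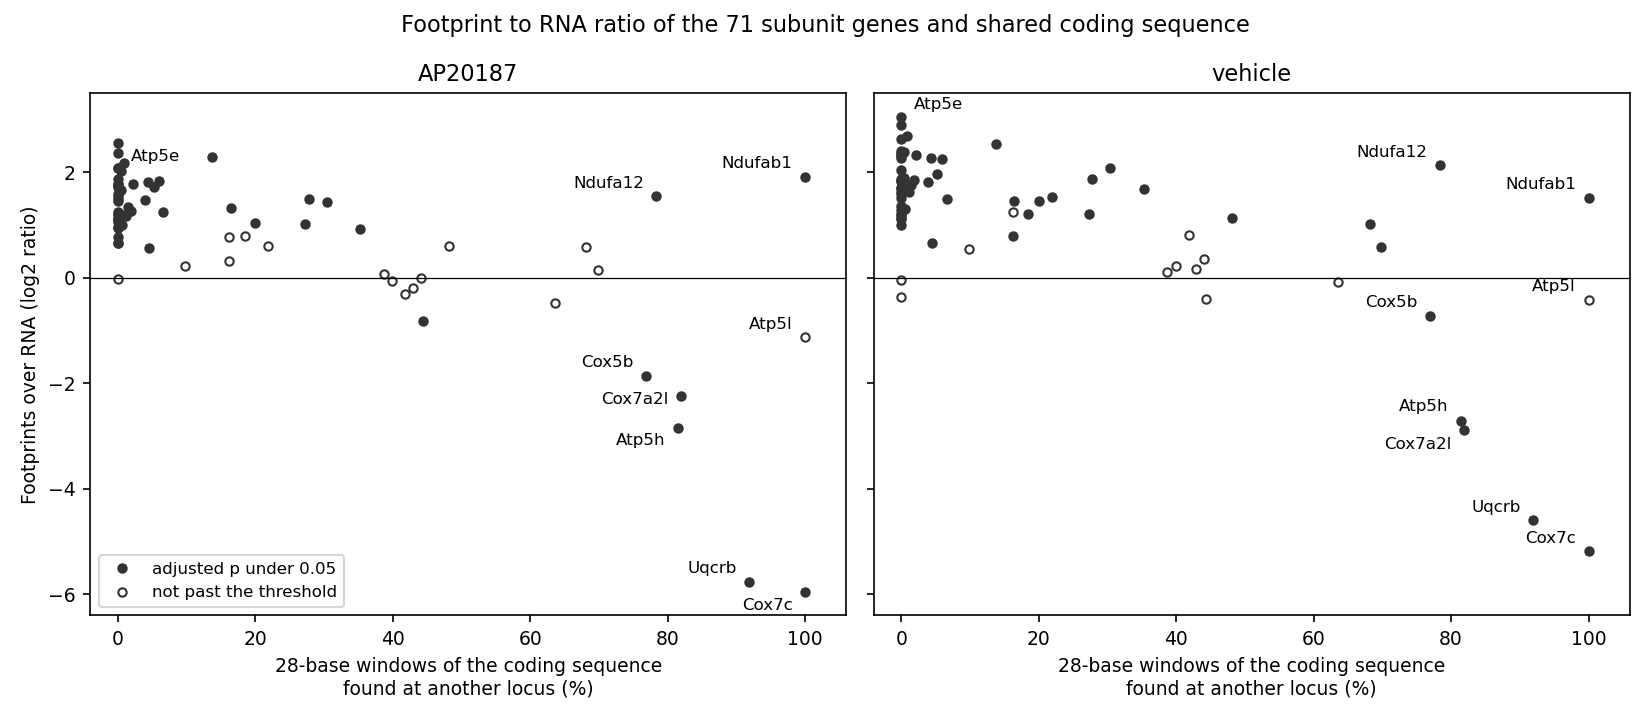
Log2 ratio of footprints over RNA (vertical axis) against the percentage of 28-base coding windows found at another annotated locus (horizontal axis) for the 71 subunit genes, with AP20187 on the left and vehicle on the right. Filled points passed an adjusted p of 0.05. Cox7c, Uqcrb, Cox7a2l, Atp5h and Cox5b are low with 76.9% or more of windows shared, while Ndufab1 and Ndufa12 are high with 100% and 78.3%.

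Per length, the footprint levels of the subunits spread over about the same wide range with both treatments. The scale here is footprint CPM per kilobase of coding sequence, as a mean of 3 libraries. By complex, the median gene had 285 with AP20187 and 316 with vehicle in complex I, 360 with AP20187 and 382 with vehicle in complex II, 547 with AP20187 and 529 with vehicle in complex III, 623 with AP20187 and 627 with vehicle in complex IV, and 528 with AP20187 and 487 with vehicle in complex V. The core subunits of complex I were lower than its accessory ones, at a median of 184 with AP20187 and 179 with vehicle, against 358 with AP20187 and 387 with vehicle for the accessory genes. The core genes had 639 to 2184 coding bases and the accessory ones 213 to 1407. No test was made between these sets, and the part of coding length was not tested.

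Atp5e was the most densely covered gene, at 3246 ± 422 with AP20187 and 4048 ± 1603 with vehicle (SD, n = 3 each), on this per-kilobase footprint scale. With 159 bases its coding sequence was the shortest of the 71 members, and the part of length in this ranking was not tested. The next was Cox4i1, at 2367 ± 478 with AP20187 and 2562 ± 516 with vehicle, and then Atp5b, at 2102 ± 412 with AP20187 and 1821 ± 97.2 with vehicle. Each of these was within the spread of the next, except that Cox4i1 stood above Atp5b by more than their SDs with vehicle. The ATP synthase holds several alpha and beta subunits in a fixed ratio to single gamma, delta and epsilon subunits. On the footprint scale Atp5a1 (alpha) had 1343 ± 351 with AP20187 and 1218 ± 158 with vehicle, and Atp5d (delta) had 1235 ± 147 with AP20187 and 1347 ± 413 with vehicle. Atp5c1 (gamma), with 27.2% of its windows shared, was lower, at 556 ± 76.6 with AP20187 and 487 ± 42.2 with vehicle. On the RNA scale, per kilobase of transcript, the order differed: Atp5b was highest, at 791 CPM with AP20187 and 594 CPM with vehicle, while Atp5e had 254 ± 52.3 with AP20187 and 206 ± 47.0 with vehicle. Cox4i2, Cox7c, Uqcrb and Atp5s were among the lowest in footprints, with 12.8, 5.13, 6.21 and 10.8 with AP20187, and Cox4i2 was lowest of all with vehicle, at 3.25.

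**Figure D5:**
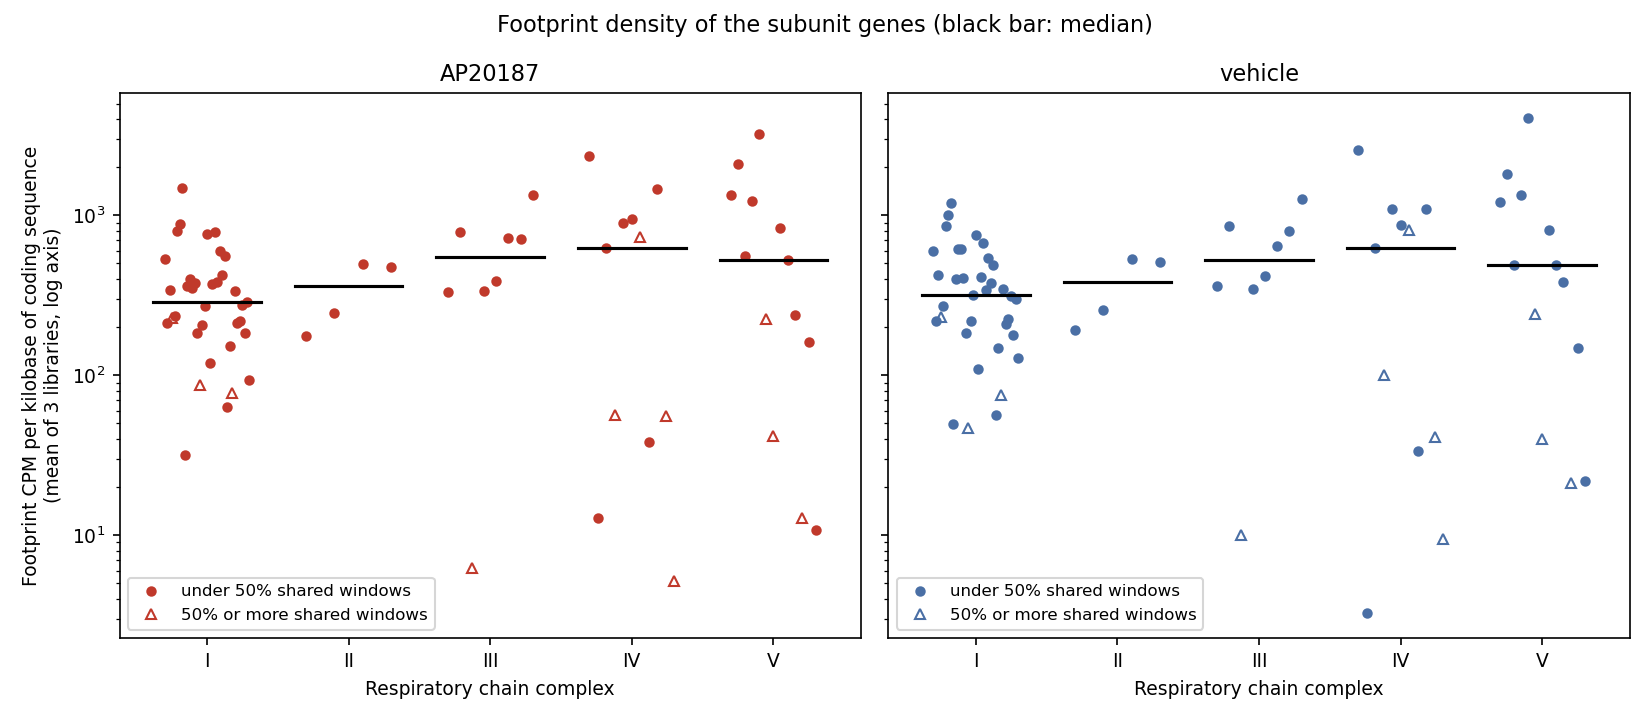
Footprint CPM per kilobase of coding sequence (log axis, mean of 3 libraries) of each subunit gene by complex, with AP20187 on the left and vehicle on the right. Black bars are medians and open triangles mark genes with at least 50% of coding windows shared with another locus. The medians lie between 285 and 623 with AP20187 and between 316 and 627 with vehicle, and Atp5e is the highest point in both panels.

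Several subunits of complex IV exist as isoforms from separate genes, which differ between tissues. The isoform of most tissues was the abundant one wherever both were listed. Cox4i1 had RNA of 299.5, 312 and 341 CPM with AP20187 and 262, 312 and 264 CPM with vehicle. Its counterpart Cox4i2 had 2.42, 2.18 and 2.47 CPM with AP20187 and 1.90, 2.55 and 3.50 CPM with vehicle. Per kilobase of coding sequence, the footprint level of Cox4i1 was 2367 with AP20187 and 2562 with vehicle, against 12.8 and 3.25 for Cox4i2. Cox7a2, the widespread form of subunit 7A, had footprints of 376, 371 and 351 CPM with AP20187 and 306, 321 and 202 CPM with vehicle. It was the other member whose footprints lay above vehicle in all 3 AP20187 libraries (0.41 ± 0.26, edgeR adjusted p = 0.496). Cox7a1, the form of heart, skeletal muscle and brown fat, had footprints of 8.17, 11.04 and 8.76 CPM with AP20187 and 3.29, 9.27 and 11.8 CPM with vehicle, and overlapped. Of other markers of those tissues, Acta1 of skeletal muscle averaged 2.86 CPM of RNA with AP20187 and 3.30 CPM with vehicle, and Ucp1 of brown fat 0.836 CPM with AP20187 and 2.72 CPM with vehicle (edgeR adjusted p = 0.0329).

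Ndufa4, long counted with complex I and since assigned to complex IV, was counted here with complex I by its symbol. It had the highest positive RNA difference of the members. Its RNA was 204, 175 and 303 CPM with AP20187 and 114, 198 and 105 CPM with vehicle (0.71 ± 0.29, edgeR adjusted p = 0.0980), with vehicle library 2 above AP20187 library 2. Its paralogue Ndufa4l2, which is induced by hypoxia, had 2.57, 3.05 and 2.71 CPM with AP20187 and 3.57, 3.95 and 4.26 CPM with vehicle (-0.50 ± 0.26, edgeR adjusted p = 0.178), all 3 AP20187 libraries being lower. Cox6b1 had RNA of 191, 184 and 300.3 CPM with AP20187 and 148, 224 and 144 CPM with vehicle, and overlapped. Cox6a2, Cox6b2, Cox8a, Cox8b and Atp5g1 to Atp5g3 were not analysed here.

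Nuclear respiratory factor 1 (NRF1), the ETS factor GABP (also called nuclear respiratory factor 2) and YY1 are transcription factors known to bind promoters of respiratory chain genes. RefSeq promoter sequences (GRCm38.p6) were matched for 55 of the 71 members, and the 250 bases upstream of the start site were searched on both strands. The NRF1 motif, GCGCA and GCGC with any 1 base between them, was found in 10 of 55 member promoters (18.2%), against 10.4% of 5675 listed genes. The ETS core CCGGAAG was found in 11 of 55 (20%, against 17.2%), and AAGATGGC, the core of YY1 sites, in 1 of 55 (1.82%, against 2.64%). Motifs were not required to be free of overlap. The promoter of Cox6a1 is shown because that gene had the smallest RNA p of complex IV and its promoter held both the NRF1 and the ETS motif. It is chr5:115348959-115349208 on the minus strand, with the motif matches in capitals.
Cox6a1: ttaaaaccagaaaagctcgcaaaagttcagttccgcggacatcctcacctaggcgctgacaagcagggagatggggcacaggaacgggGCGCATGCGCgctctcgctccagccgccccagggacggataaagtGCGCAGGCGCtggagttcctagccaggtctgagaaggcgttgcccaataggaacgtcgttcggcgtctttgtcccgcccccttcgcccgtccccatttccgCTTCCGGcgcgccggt

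Of the capitals, the first and second runs are NRF1 motifs and the last, CTTCCGG, is the ETS core on the opposite strand. The motifs are letters in a window and no binding was measured. RNA of the factors themselves was listed for NRF1, GABP and YY1. Nrf1 averaged 59.8 CPM with AP20187 and 56.4 CPM with vehicle (0.08 ± 0.12, edgeR adjusted p = 0.631). The subunits of GABP fell: Gabpa averaged 81.7 CPM with AP20187 and 110 CPM with vehicle (-0.43 ± 0.12, edgeR adjusted p = 0.0369), and Gabpb1 averaged 201 CPM with AP20187 and 390 CPM with vehicle (-0.96 ± 0.24, edgeR adjusted p = 0.0232). Yy1 averaged 100 CPM with AP20187 and 138 CPM with vehicle (-0.46 ± 0.15, edgeR adjusted p = 0.0540). Of 7 listed regulators of mitochondrial gene expression, of 12 looked for, these 2 fell and 0 rose in RNA (all genes: 13.9% lower and 12.4% higher), and 0 passed in footprints (edgeR; all genes: 0.937% higher and 1.6% lower; at an unadjusted p under 0.05, 0 were higher and 1 lower).

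Genes that work with the respiratory chain were described in 3 further lists, whose RNA counts are read against 12.4% of all genes called higher and 13.9% lower. Of 47 assembly factors, which build the complexes without being part of them, 25 were listed. Their median RNA difference was 0.25, 2 rose and 0 fell, which is below the share of all genes in both directions. Cox15, which makes haem a for complex IV, averaged 36.1 CPM with AP20187 and 21.8 CPM with vehicle (0.73 ± 0.19, edgeR adjusted p = 0.0256), and Ecsit, a complex I assembly factor, averaged 27.7 CPM with AP20187 and 19.8 CPM with vehicle (0.48 ± 0.15, edgeR adjusted p = 0.0430). For cytochrome c and ubiquinone synthesis 12 symbols were looked for, of which Coq8a and Adck3 name the same gene, and 8 genes were listed. Of these 2 rose and 1 fell, with a median of 0.55 and single values between -1.01 and 0.99. With so few genes these counts are not set apart from the shares over all genes. Cycs, the electron carrier cytochrome c itself, averaged 154 CPM (SD 68.7) with AP20187 and 77.4 CPM (SD 8.35) with vehicle (0.99 ± 0.30, edgeR adjusted p = 0.0419). Coq4 of ubiquinone synthesis rose by 0.67 ± 0.16 (edgeR adjusted p = 0.0239), and Adck3, a kinase-like protein of the same pathway, averaged 22.6 CPM with AP20187 and 45.6 CPM with vehicle (-1.01 ± 0.16, edgeR adjusted p = 0.00728). Of 20 other membrane proteins of mitochondria, 3 rose, a share near that of all genes, and 0 fell, with a median of 0.32: the prohibitin Phb2 (0.65 ± 0.15, edgeR adjusted p = 0.0204), the import pore Tomm40 (0.53 ± 0.13, edgeR adjusted p = 0.0211) and the channel Vdac2 (0.42 ± 0.13, edgeR adjusted p = 0.0459). In footprints 0 genes of these 3 lists passed in edgeR (all genes: 0.937% higher and 1.6% lower). At an unadjusted p under 0.05 in edgeR, 2 were higher and 1 lower (all genes: 7.8% higher and 8.68% lower). Cycs, Phb and Timm23 had too few footprints to be tested, and Cycs averaged 1.29 CPM of footprints with AP20187 and 0.727 CPM with vehicle.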

How the data were processed

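The table that the authors deposited holds raw read counts by gene symbol for 12 libraries, not normalized. Tools named, per the submitters' processing notes, are HTSeq, STAR, Bowtie2, cutadapt and bcl2fastq 1.8.3, and the build is mm10. Their roles, the strand setting, the handling of reads with several matches and the choice of the 7318 genes are not given in those sources. The totals are counts over these genes.

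From the counts, CPM were computed with TMM-scaled library sizes, so values are relative to the other genes. Genes passing filterByExpr were tested with the 2-sided quasi-likelihood test of edgeR 4.0.16 (R 4.3.3) with Benjamini-Hochberg adjustment over all genes tested and a threshold of 0.05. RNA and footprint responses were fitted on 6 libraries each, with treatment as the only term. Translational efficiency and footprints against RNA were contrasts of 4 group means in 1 model over 12 libraries, with no term for the shared cell pellet. As its replicate block, this model had a term per pellet. SE is the size of a log2 difference over the square root of its F value, and SD is over 3 libraries. The log2 library and pellet medians used a pseudocount of 0.5 CPM. Procedures were tested on simulated counts. DESeq2 1.42.0, limma 3.58.1 voom, other scalings and filters, a replicate block and leaving out each library were tried.

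Coding sequences, lengths and windows of 28 bases came from the APPRIS principal transcript of GENCODE M21 (GRCm38), matched for 71 of 71 members and 7134 of all genes; windows were looked for on both strands of transcripts of loci that do not overlap the gene, a lower bound on repeated sequence.

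Named members were, per complex, the 2 with the smallest p in RNA and in footprints, the highest and lowest ratio of footprints over RNA with vehicle, isoform groups, Cyc1 and the Sdh genes; of other genes, up to 4 per list by smallest p, and Nrf1 for its motif. Cases named because the libraries did not overlap, a call changed or windows were shared were picked after their values were seen. The members and lists were chosen with earlier results of these data known. Deviations from the group mean of same-numbered footprint libraries of the 2 treatments correlated across genes at 0.151, 0.256 and 0.333. Those of differently numbered ones correlated at -0.25 to 0.078. The deviations within a group cancel out, so these values depend on each other and cannot decide whether the numbers pair the footprint libraries. Footprint and RNA libraries of a number and treatment share a cell pellet, per the labels' protocols. Their deviations correlated at 0.45, 0.52 and 0.37 with AP20187 but at 0.054, 0.080 and 0.33 with vehicle. With vehicle, footprint library 1 and RNA library 2 reached 0.157.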

Additional observations from a re-analysis of the deposited data

How the results depend on the processing

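In RNA, 0 members were called higher or lower in the fit reported, 6 higher with DESeq2, and 22 higher and 2 lower with limma voom with a weight per library, an alternative chosen after seeing the data (all genes: 25.6% higher, 25.3% lower). Leaving out each RNA library in turn gave 0 to 14 higher and 0 lower, with medians of 0.14 to 0.47. With the replicate block, 1 member (Ndufa7) was lower in footprints, and the block changed no other count beyond 1.5 times. Same-numbered RNA libraries of both treatments correlated at 0.20, -0.05 and -0.06, and the RNA block called 0 members. Leaving out each footprint library gave footprint medians of -0.12 to 0.05 and 0 calls. Translational efficiency had 0 calls in every alternative run. Footprints against RNA gave 43 to 49 higher and 5 to 7 lower with AP20187 and 48 to 55 higher and 4 to 6 lower with vehicle when libraries were left out. The shares of all genes called were not computed in those fits. In the fit reported they were 19.4% higher and 20.5% lower with AP20187, and 26.7% higher and 24.2% lower with vehicle. The near-zero ratio of Ndufs1 changed sign with AP20187 in limma voom (0.014), with library weights (0.083) and with upper quartile scaling (0.085), and with vehicle with library weights (0.0053) and upper quartile scaling (0.047). That scaling moved the median of all genes by 0.10 in both ratios. Leaving out libraries, it ranged from -0.14 to 0.17 with AP20187 (positive without RNA AP20187 library 3 and without footprint AP20187 library 2) and from -0.21 to 0.015 with vehicle (positive without RNA vehicle library 2). Footprint differences ranged from -0.32 to 0.10 for Sdhd, -1.01 to 0.15 for Atp5k and -1.36 to 0.21 for Atp5s, positive only without footprint vehicle library 1 among the 6 left out in turn; the cause was not tested. The footprint floor of 0.272 to 1.69 CPM limits what can be said of Cox7c, Uqcrb and Cox4i2.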

Other observations

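In some small subunits, footprint library 3 stood apart from libraries 1 and 2 in both treatments, a pattern picked after the values were seen and not tested. Ndufa4 had footprints of 472, 499 and 136 CPM in AP20187 libraries 1, 2 and 3 and 474, 293 and 123.1 CPM in vehicle libraries 1, 2 and 3, although its RNA in AP20187 library 3 was the highest of all, at 303 CPM. Cox6b1 had 311, 317 and 117 CPM of footprints with AP20187 and 313, 233 and 136 CPM with vehicle, and Uqcr10 had 144, 222 and 94.0 CPM with AP20187 and 250, 147 and 107 CPM with vehicle. Library 3 was thus the lowest of its treatment in footprints for these 3 genes. The coding sequences have 249 bases in Ndufa4, 261 in Cox6b1 and 195 in Uqcr10. Ndufb2, with 318 coding bases, was the reverse, with 175, 164 and 394 CPM of footprints with AP20187 and 194, 229 and 300 CPM with vehicle. What the library number stands for was not given in the labels, and the cause was not tested.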
